A study of Homo sapiens with 6 samples.

Results

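The genes described here encode the small soluble proteins that carry fatty acids, retinoids and acyl-CoA inside cells: the fatty acid-binding proteins FABP3, FABP4, FABP5, FABP6, FABP7 and PMP2, the retinoic acid-binding proteins CRABP1 and CRABP2, and the acyl-CoA-binding protein DBI. They were chosen by name, and all 9 were found among the 58051 genes of the table. By the labels, RNA came from MDA-MB-231, an established human triple-negative breast cancer line of mesenchymal-like form, recorded as wild type. Cells of every library had been stained with recombinant human FABP4 carrying the fluorophore FITC and then sorted by flow cytometry, giving 3 libraries of cells that bound the protein and 3 of cells that did not. The labels give no unstained or unsorted control. They leave unsaid whether replicates were cultured or sorted separately, and the p-values therefore cover no more than the variation among these 6 libraries, part or all of which may be technical. The protein used for sorting was added from outside, whereas the values below are the transcripts the cells themselves made.

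Fatty acid-binding proteins and cellular retinoid-binding proteins share a fold, a barrel of beta strands that closes over the bound lipid. They move their ligands through the cytosol to enzymes, membranes and, for several members, nuclear receptors: FABP4 and FABP5 are known to pass fatty acids to receptors of the PPAR family, and CRABP2 passes retinoic acid to its receptor. DBI belongs to another fold, a bundle of helices that holds acyl-CoA esters, and is also known as a ligand of the mitochondrial outer membrane protein TSPO. Each member is best known from particular tissues, such as FABP4 from adipocytes and macrophages, FABP5 and CRABP2 from epidermis, FABP3 from heart and muscle, FABP7 and PMP2 from glia and myelin, and FABP6 from the ileum, where it carries bile acids.

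Levels are in TPM, a relative measure that corrects for transcript length and adds up to 1000000 in each library. TPM keep no record of depth, so counting error cannot be given. The 15574 genes that reached 1 TPM in 3 or more libraries were tested by limma on log2(TPM + 1), with p-values adjusted over all of them by Benjamini-Hochberg (BH), and log2 changes below are binding minus non-binding on that scale. Between 15300 and 15945 genes per library reached 1 TPM, and genes of the mitochondrial genome took 2.98% to 3.38% of TPM in the non-binding and 9.99% to 11.2% in the binding libraries. All 6 markers of the line were present in every library, VIM at 821 to 981 TPM among them. By limma 4 of these 6 were higher in the binding cells and none lower, where 19.6% of all tested genes were higher. The 4 were EGFR, AXL, CAV1 and CD44, with log2 changes of 1.15, 0.98, 0.95 and 0.59. VIM, at 0.16, and MSN, at -0.34, did not pass (limma, BH adjusted p = 0.295 and 0.109). ESR1 was listed at 0 in all 6 libraries, and PGR reached at most 0.0573 TPM. The other 3 genes looked for as low in this line were present in every library, GATA3 at 9.90 to 16.9 TPM, ERBB2 at 9.75 to 14.7 TPM and FOXA1 at 3.26 to 6.28 TPM, and none of the 3 passed (limma; 0 at an unadjusted p under 0.05). Of 14 keratinocyte markers looked for, none was listed at 0 in every library, for example KRT10 at 969 to 1337 TPM in non-binding and 422 to 667 TPM in binding libraries. Summed, these 14 came to 3676 to 5158 TPM in non-binding and 1633 to 2873 TPM in binding libraries. Of them 8 were lower in the binding cells, where 7.12% of all tested genes were lower, and none was higher (0 at an unadjusted p under 0.05). That count of 8 was 2 without non-binding replicate 2 and 0 without non-binding replicate 3. These are genes of stratified epidermis, which the labelled line is not known for, so the libraries go against their label in this respect. The source of these transcripts was not tested, and levels of the epidermal members FABP5 and CRABP2 are to be read beside them. In bulk RNA, fewer cells of a type and less RNA per cell cannot be told apart.

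The promoters of FABP6 and DBI are shown because these were the members whose groups did not overlap, and that of CRABP2 because its groups did overlap. CRABP2 had a mean over all 6 libraries of 39.1 TPM, above DBI at 31.5 TPM and FABP6 at 14.3 TPM. Promoter sequence was taken from RefSeq (GRCh38.p14, 250 bases before to 50 after each start), which held 6 of the 9 members; the others were FABP4, FABP5 and PMP2. Where a gene had several windows the most upstream one was used. Only bases before the start that lie in no annotated exon are printed, 5′ to 3′ on the gene's own strand: chr5:160229256-160229429 (plus strand) for FABP6, chr2:119366829-119366920 (plus strand) for DBI and chr1:156705817-156706034 (minus strand) for CRABP2. Capitals mark motif matches.
FABP6: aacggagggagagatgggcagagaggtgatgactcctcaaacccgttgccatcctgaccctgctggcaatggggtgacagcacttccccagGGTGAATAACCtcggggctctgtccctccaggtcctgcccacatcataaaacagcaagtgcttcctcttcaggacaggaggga
DBI: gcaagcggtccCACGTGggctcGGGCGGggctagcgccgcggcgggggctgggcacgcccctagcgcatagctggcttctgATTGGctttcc
CRABP2: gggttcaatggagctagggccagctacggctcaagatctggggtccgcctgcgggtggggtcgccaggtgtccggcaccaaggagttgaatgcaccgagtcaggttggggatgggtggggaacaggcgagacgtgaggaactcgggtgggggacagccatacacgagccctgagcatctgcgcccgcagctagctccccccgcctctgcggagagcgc
The 250 bases before each start were searched on both strands for 7 motifs, chosen with the results known. The capitals in FABP6 are a match to the inverted repeat of GGTNA (GGTNA, any 1 base, TNACC), the form that the bile acid receptor FXR binds, which 0.165% of 35116 promoter windows hold. This letter pattern was picked with FABP6's known regulation in mind. FABP6 also had a TATA box (TATAAA, minus strand) 30 to 25 bases before the RefSeq start, outside the printed stretch, a motif in 10.7% of windows. In DBI the capitals are an E-box (CACGTG, in 6.34% of windows), a GC box (GGGCGG, in 42.6%) and a CCAAT box on the minus strand (CCAAT, in 32.0%). None of the 7 was found in CRABP2 or FABP3. The receptor half-site AGGTCA (12.1% of windows) and its direct repeat with any 1 base between the copies (0.0171%) were found in none of the 6 members. The overlaps between motifs were not removed, the direct repeat holding the half-site by construction. A match is a description of letters, and a missing match says only that these letters were not in this window. DBI's printed stretch is the whole of the 92 bases between its first annotated base and that of C2orf76, which runs the opposite way.

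Of the 9 members, 6 passed the low-value filter. FABP6 rose in the binding cells, the other 5 did not pass the threshold and none fell (at an unadjusted p under 0.05, 2 were higher and 0 lower). Over all tested genes 26.7% passed, 19.6% higher and 7.12% lower, so 1 call among 6 is near the background share. Members whose groups did not overlap numbered 2 of 6, FABP6 and DBI, against 52.2% of all tested genes, 38.6% with the binding libraries higher. The median log2 change of the 6 was 0.20, beside 0.36 over all tested genes, and 4 of the 6 lay below that general median. Since this median is not 0, changes are also given relative to it.

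**Figure D1:**
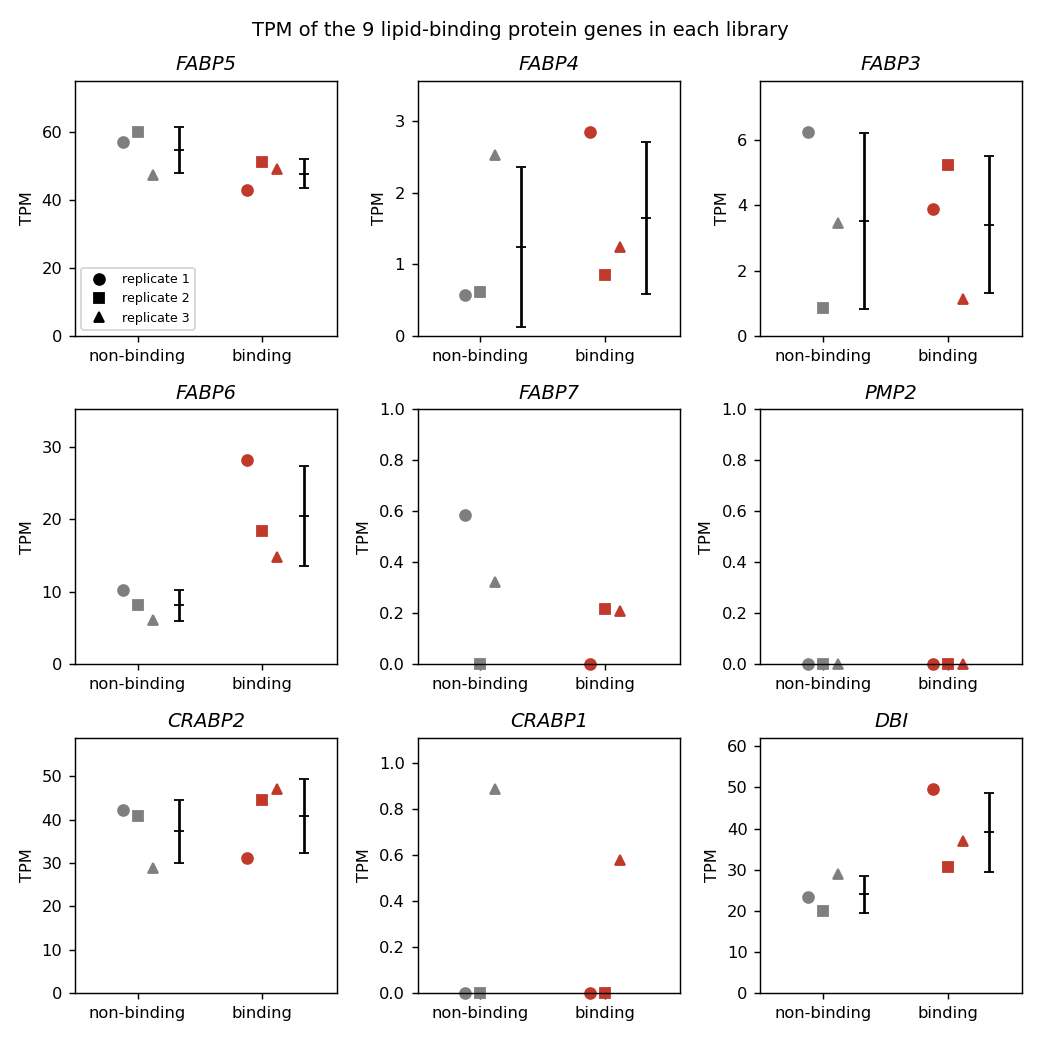
TPM of each of the 9 genes (y axis, linear and starting at 0, a separate scale for each gene) in the 3 non-binding (grey) and 3 binding (red) libraries; symbols give the replicate number and bars the mean ± SD for genes above 0 in every library. FABP6 and DBI are the genes whose groups do not overlap, PMP2 is at 0 throughout, and FABP5 and CRABP2 hold the highest levels with DBI.

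FABP6, the ileal carrier of bile acids (ENSG00000170231, chromosome 5, 160187367 to 160238735, plus strand, hg38), stood at 10.3, 8.17 and 6.07 TPM in non-binding replicates 1 to 3 and at 28.1, 18.4 and 14.8 TPM in binding replicates 1 to 3. Every binding library lay above every non-binding library, with binding replicate 1 highest. The means were 20.5 ± 6.89 against 8.18 ± 2.12 TPM (SD, n = 3 each), a ratio of 2.50. FABP6 changed by 1.20 on the log2 scale (SE 0.28, 95% interval 0.57 to 1.84; limma, BH adjusted p = 0.0232), or 0.85 above the median of all genes, and 2.66% of tested genes changed further upward. The change was 0.89 after a shift that gave all libraries the same median (limma, BH adjusted p = 0.044) and 0.88 after quantile scaling (limma, BH adjusted p = 0.0481). The call was lost without non-binding replicate 2 (1.22; limma, BH adjusted p = 0.0687), without non-binding replicate 3 (1.03, limma, BH adjusted p = 0.0712) and with no filter on low values (1.20, limma, BH adjusted p = 0.0512).

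The bile acid setting in which FABP6 is best known was looked at in the same libraries, with genes chosen after values were seen except for the enterocyte list. NR1H4, which encodes FXR, and NR0B2, its classical target, were listed at 0 in all 6 libraries. SLC51A, part of the basolateral bile acid exporter, reached at most 0.844 TPM. SLC51B, looked at with it, was at 0.939 TPM in non-binding replicate 3 and FGF19 at 0.406 TPM in binding replicate 1. Each of these was listed at 0 in the other 5 libraries. All 6 enterocyte markers, among them VIL1 and the ileal bile acid importer SLC10A2, were listed at 0 throughout. In GENCODE release 29 FABP6 has 4 transcripts, 2 of them protein-coding, with starts at 160187367 and 160229430. Values per gene do not separate these starts. The printed promoter belongs to the downstream start; the RefSeq start from which its motif positions are counted lies inside the first exon of that transcript. None of FABP6's stretches of 50 bases occurs in a transcript of another gene on the same strand, and 5.59% occur on the opposite strand in AC008609.1, an antisense gene listed at 0 in all 6 libraries. CCNJL, a cyclin-like gene that ends 10370 bases beyond FABP6 and points towards it, stood at 6.24, 9.49 and 9.32 TPM in non-binding and 24.1, 24.2 and 28.3 TPM in binding replicates. Its log2 change was 1.52 (SE 0.20; limma, BH adjusted p = 0.00996), a call narrowly lost without non-binding replicate 3 (limma, BH adjusted p = 0.0506). PWWP2A, the nearest coding gene on the other side, stood at 6.50 to 8.59 TPM in non-binding and 8.31 to 8.92 TPM in binding libraries.

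DBI, the acyl-CoA-binding protein (ENSG00000155368, chromosome 2, 119366921 to 119372560, plus strand), stood at 23.3, 20.0 and 28.9 TPM in non-binding replicates 1 to 3 and at 49.6, 30.6 and 36.9 TPM in binding replicates 1 to 3. The groups did not overlap, but the highest non-binding library, at 28.9 TPM, came close to the lowest binding library, at 30.6 TPM. The means were 39.1 ± 9.69 against 24.0 ± 4.49 TPM (SD, n = 3 each), a ratio of 1.63. The log2 change of 0.67 (SE 0.22, 95% interval 0.17 to 1.17) narrowly missed the threshold (limma, BH adjusted p = 0.0535) and was 0.31 above the median of all genes. DBI passed after rescaling TPM without the mitochondrial genome (0.78; limma, BH adjusted p = 0.0296), with a filter of 5 TPM (0.67, limma, BH adjusted p = 0.0372) and without binding replicate 2 (0.82, limma, BH adjusted p = 0.049). After the median shift the change was 0.35 and after quantile scaling 0.38, and neither passed (limma, BH adjusted p = 0.195 and 0.176). C2orf76, which starts 92 bases from DBI on the other strand, stood at 9.29, 2.79 and 2.28 TPM in non-binding and 11.5, 6.16 and 8.17 TPM in binding replicates, groups that overlapped (limma, BH adjusted p = 0.149).

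FABP5, the epidermal carrier of fatty acids (ENSG00000164687), was the most abundant member in 5 of the 6 libraries, after DBI in binding replicate 1. It stood at 56.9, 59.9 and 47.2 TPM in non-binding and at 43.0, 51.1 and 49.0 TPM in binding replicates 1 to 3. The groups overlapped, since non-binding replicate 3 lay below binding replicates 2 and 3. The log2 change was -0.19 (SE 0.15, 95% interval -0.54 to 0.16; limma, BH adjusted p = 0.352), or -0.55 relative to the median of all genes. It was -0.51 after the median shift (limma, BH adjusted p = 0.0776) and -0.41 after quantile scaling (limma, BH adjusted p = 0.133). The summed keratinocyte markers, 1633 to 2873 TPM in binding and 3676 to 5158 TPM in non-binding libraries, were lowest in binding replicate 1 and highest in non-binding replicate 2, as FABP5 was; their part in its level was not tested. FABP5 has many processed copies in the genome, and 18.4% of its stretches of 50 bases occur in transcripts of 8 other genes. Of 18 named copies of the members in the table, 13 of them copies of FABP5, 15 were listed at 0 in every library. The exceptions were FABP5P7 at up to 4.27 TPM, FABP5P1 at up to 2.15 TPM and FABP7P1 at 2.26 TPM in non-binding replicate 3 alone. With the copies added, the FABP5 log2 change was -0.18. AC009902.2, an antisense gene that overlaps the start of FABP5, stood at 1.14 to 1.26 TPM in non-binding and 2.12 to 2.55 TPM in binding libraries, and whether counting used strand is not given in the sources used here.

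CRABP2, which delivers retinoic acid to its nuclear receptor (ENSG00000143320, chromosome 1, 156699606 to 156705816, minus strand), stood at 42.1, 40.8 and 28.9 TPM in non-binding and at 31.1, 44.4 and 47.1 TPM in binding replicates 1 to 3. Each group held a library near 30 TPM and a pair above 40 TPM, so the groups overlapped throughout. The log2 change was 0.13 (SE 0.22, 95% interval -0.37 to 0.62; limma, BH adjusted p = 0.667), and it was -0.19 after the median shift, -0.14 after quantile scaling and -0.043 without non-binding replicate 3. Its relative CRABP1, best known from developing tissues, was listed at 0 in 4 libraries and stood at 0.889 TPM in non-binding replicate 3 and 0.579 TPM in binding replicate 3. It was not tested. In CRABP1, 37.9% of stretches of 50 bases occur on the opposite strand in the overlapping gene AC011270.2, which was at 0.678 TPM in 1 library and listed at 0 in the other 5.

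FABP4, the carrier whose recombinant protein was used for the sort, lies with FABP5 and PMP2 in a cluster of 5 family genes on chromosome 8 (81280363 to 81531378, hg38). Its transcript stood at 0.573, 0.619 and 2.53 TPM in non-binding and at 2.84, 0.854 and 1.24 TPM in binding replicates 1 to 3. A single library in each group lay above 2 TPM, and the spread within a group was larger than the distance between group means. The log2 change of 0.28 had a 95% interval from -0.75 to 1.30 (limma, BH adjusted p = 0.647), and it was -0.043 after the median shift, -0.022 after quantile scaling and -0.030 without binding replicate 1. PMP2, the myelin member, and the cluster's FABP9 and FABP12 were listed at 0 in all 6 libraries. Of 8 adipocyte markers, ADIPOQ and LEP were listed at 0 throughout, and the 8 together came to 12.6 to 25.7 TPM in non-binding and 23.3 to 25.8 TPM in binding libraries. Of these, 3 were tested and 1 was higher, beside 19.6% of all tested genes. It was PLIN4, at 6.78 to 10.1 TPM in binding against 1.49 to 3.19 TPM in non-binding libraries. The part of these markers in the level of FABP4 was not tested. The 7 macrophage markers came to 36.5 to 58.8 TPM in non-binding and 27.9 to 49.9 TPM in binding libraries, and none of the 6 tested passed (limma; 0 at an unadjusted p under 0.05).

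FABP3, the heart and muscle carrier (ENSG00000121769, chromosome 1, 31365625 to 31376850, minus strand), stood at 6.23, 0.842 and 3.44 TPM in non-binding and at 3.87, 5.23 and 1.12 TPM in binding replicates 1 to 3. The values ran from about 1 TPM to over 5 TPM inside each group. Its log2 change was 0.04 (SE 0.57, 95% interval -1.27 to 1.35; limma, BH adjusted p = 0.959), and 5 of the alternatives turned its sign, among them the median shift at -0.28. FABP7, the glial carrier, stood at 0.586, 0 and 0.324 TPM in non-binding and at 0, 0.218 and 0.211 TPM in binding replicates 1 to 3, and was not tested. SOX10, a glial marker, was listed at 0 in every library. The 6 Schwann or glial markers came to 8.28 to 19.1 TPM in non-binding and 11.8 to 16.4 TPM in binding libraries. The non-binding maximum held S100B at 10.1 TPM in replicate 2, a gene at no more than 0.610 TPM in any other library. Neither of the 2 tested passed by limma (1 at an unadjusted p under 0.05). That 1 was GFAP, at 0.870 to 2.10 TPM in non-binding and 3.13 to 3.59 TPM in binding libraries (limma, BH adjusted p = 0.0559). The 6 muscle markers came to 4.59 to 5.31 TPM in non-binding and 6.06 to 8.37 TPM in binding libraries. Of these 2 were tested and 1 was higher, beside 19.6% of all tested genes. It was MB, the myoglobin gene, at 0.399 to 1.22 TPM in non-binding and 2.75 to 5.31 TPM in binding libraries. Of the other muscle markers, MYH7 also had a higher mean in the binding libraries, while TNNT2, ACTC1, CKM and MYH6 had lower means. TNNT2, which was not tested, stood at 0.55 to 0.71 TPM in non-binding and 0.27 to 0.41 TPM in binding libraries. The part of these markers in the levels of FABP3 and FABP7 was not tested.

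**Figure D2:**
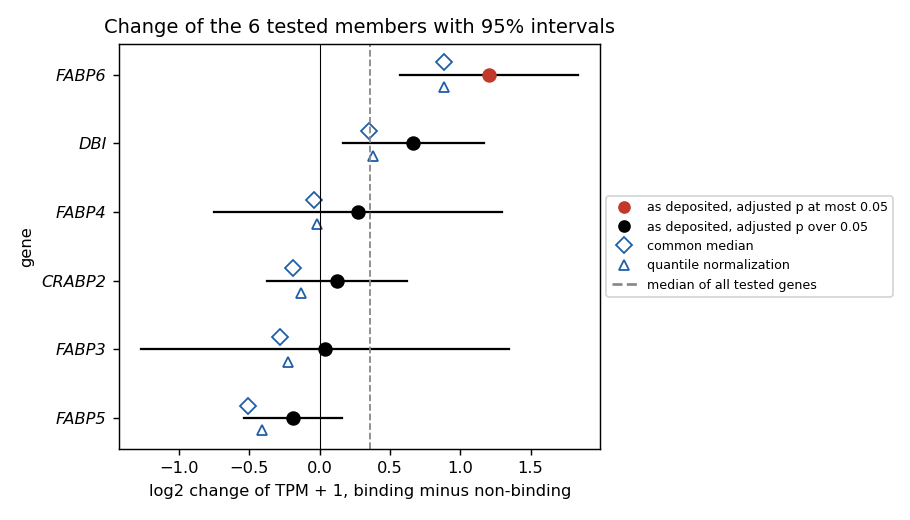
Log2 change of TPM + 1, binding minus non-binding (x axis), for the 6 tested members (y axis). Filled points are the values as deposited with their 95% intervals, open symbols the same change after scaling to a common median or quantile normalization, and the dashed line the median of all tested genes at 0.36. FABP6 alone is past the threshold, and CRABP2, FABP3 and FABP4 lie above 0 as deposited and below 0 after either scaling.

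Ratios between members within a library do not change when all of its TPM are multiplied by 1 factor. FABP6 amounted to 0.181, 0.136 and 0.129 of FABP5's TPM in non-binding and to 0.654, 0.361 and 0.302 in binding replicates 1 to 3, so the groups did not overlap. DBI amounted to 0.408, 0.333 and 0.612 of FABP5's TPM in non-binding and to 1.15, 0.600 and 0.753 in binding replicates 1 to 3. There non-binding replicate 3 lay above binding replicate 2. FABP5, CRABP2, DBI and FABP6 together supplied 93.9% to 98.9% of the family's TPM in every library. The share of FABP5 ran from 39.9% to 46.0% in non-binding and from 27.1% to 33.9% in binding libraries, and that of FABP6 from 5.13% to 7.35% and from 9.82% to 17.7%. For both genes the ranges did not overlap. Shares within a library depend on one another, so these are not separate results. The TPM of FABP5 itself overlapped, at 47.2 to 59.9 in non-binding and 43.0 to 51.1 in binding libraries. The share of CRABP2 ran from 24.4% to 31.3% and from 19.6% to 31.2%, and that of DBI from 15.3% to 24.4% and from 20.3% to 31.3%, which overlapped. The 9 genes summed to 118 to 140 TPM in non-binding and 151 to 159 TPM in binding libraries. These sums did not overlap, where 52.2% of all tested genes had groups apart and their median log2 change was 0.36. In order of mean level over all 6 libraries the members ran FABP5, CRABP2, DBI, FABP6, FABP3, FABP4, CRABP1, FABP7 and PMP2. Over the 6 libraries the ranges of each pair of neighbours in this order overlapped. Within single libraries the order was steadier: FABP6 came below FABP5, CRABP2 and DBI and above the rest in all 6, and FABP5 came first in 5.

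**Figure D3:**
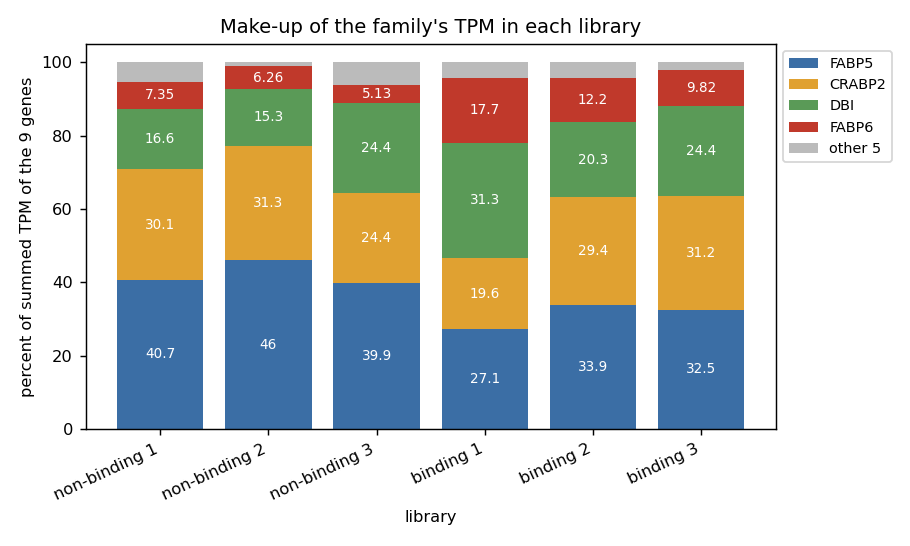
Percent of the summed TPM of the 9 genes (y axis) held by FABP5, CRABP2, DBI, FABP6 and the other 5 genes together in each of the 6 libraries (x axis). FABP5 holds 39.9% to 46.0% in the non-binding bars and 27.1% to 33.9% in the binding bars, and FABP6 5.13% to 7.35% and 9.82% to 17.7%.

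The genes whose level followed each tested member most closely were taken by Pearson's r of log2(TPM + 1) over the 6 libraries, among tested genes with a mean of at least 5 TPM. Annotated pseudogenes and genes of the mitochondrial genome were left out of the ranking and the counts below. So were genes without a symbol, with a dot in the name, or with a name starting LINC, SNOR, RNU or MIR. These r share 6 libraries and a difference between groups, and are a description. For FABP6 they were SAAL1 and IAH1 (r = 0.999 for each) and TSPAN6 (r = 0.996), and 826 genes had r over 0.95. For DBI they were TEAD2 (r = 0.998), P2RY11 (r = 0.996) and NFIC (r = 0.995), with 546 genes over 0.95. For FABP5 they were NIPAL4 (r = 0.991), BNIPL (r = 0.980) and LCE2B (r = 0.979), with 8 genes over 0.95. NIPAL4 and LCE2B are genes of the differentiating epidermis. LCE2B stood at 112, 124 and 54.8 TPM in non-binding and at 30.0, 81.8 and 57.3 TPM in binding replicates 1 to 3, and stayed short of the threshold (limma, BH adjusted p = 0.159). For FABP4 they were LTV1 (r = 0.987), SKA1 (r = 0.983) and P2RY2 (r = 0.973), for FABP3 the noncoding RNA RF00003 (r = 0.975), SDHAF4 (r = 0.961) and TDG (r = 0.929), and for CRABP2 CLIC3 (r = 0.930), DUSP10 (r = 0.928) and TREM1 (r = 0.918).

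Related carriers outside the 9 numbered 15, of which 7 were tested and 1 was higher in the binding cells, with none lower (0 at an unadjusted p under 0.05). The 7 had a median log2 change of 0.41, beside 0.36 over all tested genes, of which 19.6% were higher. ECI2, an enoyl-CoA isomerase that carries an acyl-CoA-binding domain, stood at 11.5, 10.4 and 10.4 TPM in non-binding and at 26.9, 21.6 and 19.0 TPM in binding replicates 1 to 3. Its log2 change was 0.98 (SE 0.18; limma, BH adjusted p = 0.0156), a call lost without non-binding replicate 2 or 3 (limma, BH adjusted p = 0.057 and 0.0565). SCP2, the peroxisomal sterol carrier, and ACBD3, a Golgi protein with an acyl-CoA-binding domain, had log2 changes of 0.67 and 0.50 with groups that did not overlap, and narrowly missed the threshold (limma, BH adjusted p = 0.0525 and 0.0606), where 52.2% of all tested genes had groups apart. Both passed when the mitochondrial genome was left out (0.78 and 0.61) and with a filter of 5 TPM, and after the median shift their changes were 0.35 and 0.18. FABP1, FABP2, FABP9 and FABP12 were listed at 0 in every library.

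Genes that receive lipid from these carriers or act beside them numbered 14, of which 12 were tested. Of these 3 were higher and none lower (0 at an unadjusted p under 0.05), with a median log2 change of 0.42. Over all tested genes 19.6% were higher and the median was 0.36, so the count lies near the background share. TSPO, the mitochondrial membrane protein that DBI binds, stood at 101, 96.8 and 101 TPM in non-binding and at 215, 150 and 142 TPM in binding replicates 1 to 3. Its log2 change was 0.73 (SE 0.17; limma, BH adjusted p = 0.0243). CPT1A, which commits long-chain acyl-CoA to mitochondrial oxidation, averaged 16.5 ± 4.93 against 8.49 ± 1.32 TPM (SD, n = 3 each; limma, BH adjusted p = 0.0362). The receptor gene PPARA stood at 4.50, 4.64 and 4.66 TPM in binding and at 2.36, 2.75 and 1.94 TPM in non-binding replicates 1 to 3 (limma, BH adjusted p = 0.045). The calls of TSPO, CPT1A and PPARA were lost after the median shift (limma, BH adjusted p = 0.0649, 0.0908 and 0.199) and when any 1 non-binding library was left out, that of CPT1A also without binding replicate 1 or 3, and that of PPARA also without any 1 binding library. Quantile scaling ended the calls of CPT1A and PPARA, leaving out the low-value filter did the same, and fitting without the intensity trend ended those of TSPO and CPT1A. PPARG, the receptor that FABP4 is best known to supply, stood at 54.7 to 58.3 TPM in non-binding and 48.2 to 70.8 TPM in binding libraries and did not pass (limma, BH adjusted p = 0.630).

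Known PPAR target genes numbered 14, of which 10 were tested, 3 were higher and none lower (0 at an unadjusted p under 0.05), with a median log2 change of 0.57, beside 19.6% of all tested genes higher and a median of 0.36. The 3 were CPT1A, counted above among the partners too, ACADVL, an acyl-CoA dehydrogenase, and HADHA, a subunit of the mitochondrial trifunctional protein. ACADVL averaged 214 ± 27.8 against 124 ± 7.06 TPM and HADHA 122 ± 19.1 against 76.5 ± 3.27 TPM (SD, n = 3 each; limma, BH adjusted p = 0.0141 and 0.0217). Both calls were lost without non-binding replicate 2 or 3, and that of HADHA also after the median shift and without non-binding replicate 1. Other textbook targets did not pass, such as PLIN2 at 55.7 to 68.7 TPM in non-binding and 53.7 to 70.2 TPM in binding libraries and PDK4 at 4.21 to 9.38 and 2.31 to 10.8 TPM.

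On the retinoid side, 20 enzymes and receptors were listed, 10 were tested and none passed by limma (4 higher and 1 lower at an unadjusted p under 0.05), with a median log2 change of 0.15. RDH11, a retinal reductase, had binding and non-binding means of 36.4 ± 10.1 and 22.9 ± 2.26 TPM, the receptor gene RXRB 79.2 ± 8.19 and 113 ± 22.9 TPM, and RXRA 18.8 ± 1.91 and 13.4 ± 1.56 TPM (SD, n = 3 each; limma, BH adjusted p = 0.0581, 0.0636 and 0.0767). For each of these 3, named for the smallest p of the list, the groups did not overlap, as in 52.2% of all tested genes. Of the 10 tested, 2 had groups apart with the binding libraries higher and 3 with them lower. RXRB passed as lower after the median shift (log2 change -0.81), after quantile scaling (-0.60) and with a filter of 5 TPM. RDH11 passed as higher when the mitochondrial genome was left out (0.73) and with a filter of 5 TPM, and RXRA when the mitochondrial genome was left out (0.57). Of 14 retinoic acid target genes 6 were tested, CRABP2 among them. All tested genes had a median log2 change of 0.36, and 19.6% were higher. Of the 6, 1 was higher, with none lower (0 at an unadjusted p under 0.05) and a median log2 change of 0.30. The higher gene was TGM2, a transglutaminase, at 27.6, 31.4 and 27.7 TPM in non-binding and 76.4, 45.2 and 47.0 TPM in binding replicates 1 to 3 (log2 change 0.90, SE 0.21; limma, BH adjusted p = 0.0257). The TGM2 call ended when any 1 non-binding library was dropped, with no low-value filter, after the median shift and after quantile scaling. It held when the mitochondrial genome was left out. CYP26B1, which breaks down retinoic acid, had a log2 change of 0.68 and did not pass (limma, BH adjusted p = 0.0965). RARB and CYP26A1, both direct targets of the receptor, stayed under 1 TPM in every library.

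**Figure D4:**
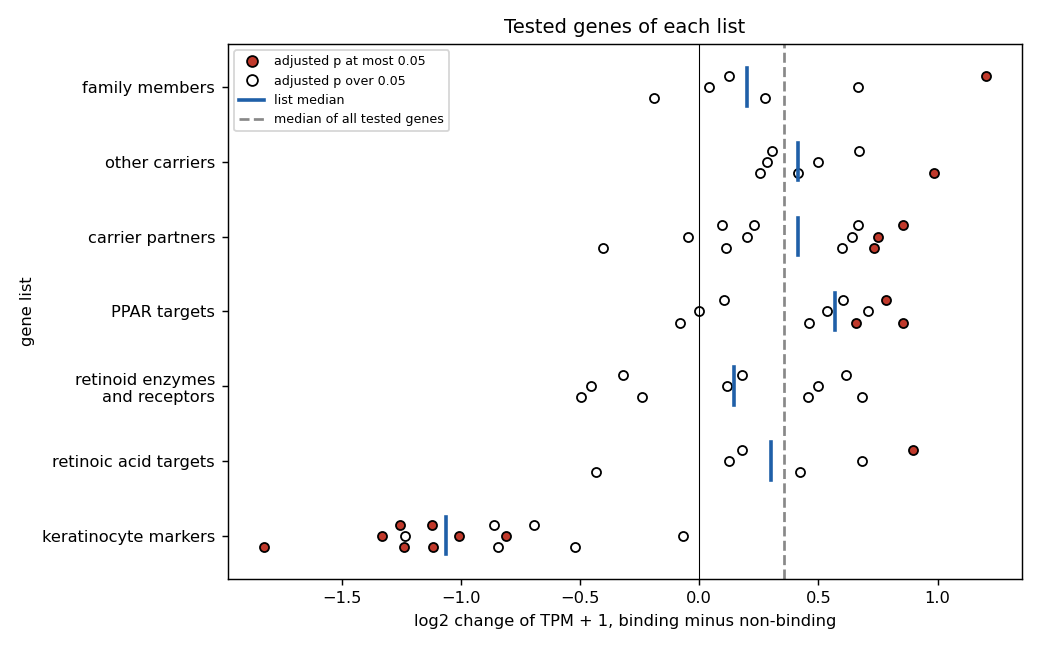
Log2 change of TPM + 1, binding minus non-binding (x axis), of each tested gene of the family, of 5 lists of related genes and of the keratinocyte markers (y axis). Filled points passed the threshold, blue bars are list medians and the dashed line is the median of all tested genes at 0.36. The keratinocyte markers all lie below 0 and the family's points spread from -0.19 to 1.20.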

How the data were processed

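Total RNA of sorted MDA-MB-231 cells was depleted of ribosomal RNA and sequenced from random primers, per the labels' protocols. The values deposited by the authors are TPM, which sum to 1000000 in each of the 6 libraries. The submitters' processing notes name hg38 as the build. The aligner and annotation, like the quantification tool, are stated in none of these sources. Since TPM keep no depth, no count model was run and no counting interval or floor was computed. Columns were matched to samples by the names in the labels.

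Values were taken as log2(TPM + 1) and fitted by limma (version 3.58.1, R 4.3.3). The variance prior followed intensity and there was no covariate. Adjustment was by Benjamini-Hochberg over all 15574 genes that reached 1 TPM in 3 or more libraries, with a threshold of 0.05. A gene that did not pass is not shown to be unchanged. Fold changes on this scale understate the change of low genes. Levels of genes with near-identical copies depend on how the authors' quantification shared reads. Members and lists were chosen with earlier results of these data known. Named genes were the 9 members, the 3 genes of smallest p in each list of related genes and the 3 genes of highest r with each tested member. Those r were ranked after the exclusions given with them. CCNJL, PWWP2A, C2orf76, AC009902.2, NR1H4, NR0B2, SLC51A, SLC51B, FGF19, PPARG, PLIN2, PDK4, RARB and CYP26A1, and the examples from marker lists, were named after their values were seen. A gene that this rule names is not reported here. Coordinates, transcripts and shared stretches come from GENCODE release 29, which may not be the annotation the submitters used. Alternatives were other scalings, pseudocounts of 0.1 and 0.5, no filter or 5 TPM, limma without trend or robust, a replicate block, each library left out, and copies added.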

Additional observations from a re-analysis of the deposited data

How the results depend on the processing

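The count of members past the threshold (limma, Benjamini-Hochberg) was 1. It was 2 when TPM was rescaled without the mitochondrial genome, 2 with a filter of 5 TPM, and 2 with the replicate block, FABP6 and DBI each time. With no filter it was 0 (2 members at an unadjusted p under 0.05), and with a library left out it ran from 0 to 2. The count over all genes was 4156, and 2443 after quantile scaling, 1873 with no filter, 2559 without the intensity trend and 64 to 2863 with a library left out, the lowest without non-binding replicate 3 and 360 without non-binding replicate 2. Of the calls over all genes 73.3% were higher, against 33.7% after the median shift and 49.0% after quantile scaling.

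Signs turned for 3 members. The log2 change of CRABP2 was -0.19 after the median shift and -0.14 after quantile scaling, and with a library left out it ran from -0.043 (without non-binding replicate 3) to 0.31. That of FABP4 was -0.043 and -0.022, and ran from -0.030 (without binding replicate 1) to 0.66. That of FABP3 was -0.28 and -0.23, and ran from -0.50 (without non-binding replicate 2) to 0.50, at -0.28 without binding replicate 2 and -0.10 without binding replicate 1. The median shift lowers the change of every gene by the same amount, so a small positive change turns negative under it. The cause of the other turns was not tested. FABP5 and DBI kept their sign under every alternative run, and FABP6 kept its sign and, in 13 of 16, its call.

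Over all alternatives the number of higher genes ran from 0 to 3 for other carriers, 0 to 5 for carrier partners, 0 to 3 for PPAR targets, 0 to 3 for retinoid enzymes and receptors and 0 to 1 for retinoic acid targets. The number of lower genes ran from 0 to 1 for carrier partners and from 0 to 2 for retinoid enzymes and receptors. Both maxima came after the median shift. It stayed at 0 for other carriers, PPAR targets and retinoic acid targets. Same-numbered libraries of the 2 groups did not deviate together (r = 0.035, -0.017 and 0.028 over genes), and not every library correlated best with its own number, so the numbers were not taken as pairs. With the replicate block 4306 genes passed; among named genes DBI, SCP2, ACBD3 and RDH11 then passed and PPARA did not.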
